A study of Homo sapiens with 28 samples.

Results

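H3K27me3 peaks of late G1 were set against those of early G1 in human embryonic stem cells with Fucci reporters, a pair of fluorescent fusion proteins that are degraded at different stages of the cell cycle. The series holds 28 samples, of which 2 are compared here: H3K27me3 ChIP-seq of the late G1 fraction, labelled KO2, and of the early G1 fraction, labelled DN, with 1 library each. All cells came from the same Fucci line, were kept feeder-free and serum-free in a medium of known composition with heregulin, activin A, an IGF-1 analogue and FGF2, and were sorted by flow cytometry, so neither treatment nor genotype differs between the groups. H3K27me3 lists of S phase (AzL) and G2/M (AzH), and the H3K4me3 and H3K27ac lists of the same G1 fractions, served as further readings of the same regions. The late G1 list held 31682 peaks and the early G1 list 23755, and all of them entered the comparison; peaks were matched by an overlap of at least 1 bp. With 1 library per group no difference could be tested, and the exact Clopper-Pearson and order-statistic 95% intervals given with shares and medians cover counting error only. How far any difference exceeds the spread between libraries of the same fraction cannot be told from these data.

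H3K27me3 is the trimethylation of lysine 27 of histone H3 that Polycomb repressive complex 2 deposits through its catalytic subunit EZH2 or EZH1. The subunit EED binds the finished mark and stimulates the enzyme, which allows the mark to spread from a nucleation site into a domain. In mammals such domains form mainly over CpG-rich promoters that are not transcribed, and in embryonic stem cells they cover the genes of developmental transcription factors, many of which carry H3K4me3 as well and are then called bivalent. During DNA replication parental histones are shared between daughter strands, so the mark is diluted and has to be restored before the next division. Since such domains range from narrow peaks to long stretches, comparisons were made by width: under 500 bp, 500 bp to 5 kb and over 5 kb.

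GATA6 is an endoderm transcription factor gene. Per the series' design text, a 4C viewpoint neighbours its promoter, and the site with the most 4C reads, taken as the viewpoint, lay in a broad H3K27me3 domain in both fractions. The promoter is shown for its CpG content. Its RefSeq promoter (GRCh38.p14, chr18:22169339-22169638, plus strand, 250 bases before to 50 after the transcription start) is given below 5′ to 3′, with every CG in capitals.
GATA6: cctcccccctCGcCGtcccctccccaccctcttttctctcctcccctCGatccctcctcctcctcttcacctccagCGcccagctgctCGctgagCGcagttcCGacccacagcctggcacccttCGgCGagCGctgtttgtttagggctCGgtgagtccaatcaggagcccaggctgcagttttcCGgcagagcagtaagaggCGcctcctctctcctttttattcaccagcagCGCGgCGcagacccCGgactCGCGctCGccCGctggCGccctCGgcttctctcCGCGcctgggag
It held 25 CG dinucleotides, against a median of 14 over the 35116 promoters of the same length in the RefSeq table, 68.0% of which held fewer and 96.0% of which held at least 1. CG reads the same on both strands. Peak positions below are in the coordinates of the deposited files, read as hg19, so the promoter was not placed within the peaks by position.

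The 2 lists ended at nearly the same weakest score, -0.584 in late G1 and -0.583 in early G1, on the authors' score, which is more negative for stronger peaks. Their heights did not end at the same level: the fifth percentile of the deposited height was 17.5 in late G1 and 20.2 in early G1, and the median height over all peaks was 24.3 in late G1 and 28.8 in early G1. The number of reads behind each list is unknown here, so depth and list length cannot be told apart. As a check of the mark, H3K27ac peaks of the same fraction, which mark active promoters and enhancers, overlapped 2.04% of the shared H3K27me3 regions in late G1 and 1.82% in early G1, and H3K4me3 peaks overlapped 28.0% in late G1 and 31.9% in early G1. Positions 40 to 50 Mb and 65 to 75 Mb of chromosome 9 held 8.51% of the late G1 peaks and 10.98% of the early G1 peaks, but 0.476% of the late G1 and 0.428% of the early G1 H3K4me3 peaks. Values without chromosome 9 are therefore given with the alternatives.

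Late G1 had more peaks of every width, and both ends of the width range contributed in different ways. Peaks under 500 bp numbered 20569 in late G1 and 13879 in early G1, a ratio of 1.48 (1.45 to 1.51). Peaks of 500 bp to 5 kb numbered 10024 in late G1 and 8979 in early G1, a ratio of 1.12 (1.08 to 1.15). Broad peaks of over 5 kb numbered 1089 in late G1 and 897 in early G1, a ratio of 1.21 (1.11 to 1.33). Over all widths the ratio was 1.33 (1.31 to 1.36), and the short peaks made up 84.4% of the 7927 additional late G1 peaks while the broad ones made up 2.42%. The covered length was 32.0 Mb in late G1 and 27.02 Mb in early G1, a ratio of 1.19. Broad peaks supplied 51.4% of the 4.999 Mb difference, covering 12.5 Mb in late G1 and 9.96 Mb in early G1. Peaks of 500 bp to 5 kb covered 15.1 Mb in late G1 and 14.0 Mb in early G1, and short peaks covered 4.38 Mb in late G1 and 3.02 Mb in early G1. The difference in number thus lay mainly in narrow peaks and the difference in length mainly in broad ones.

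**Figure D1:**
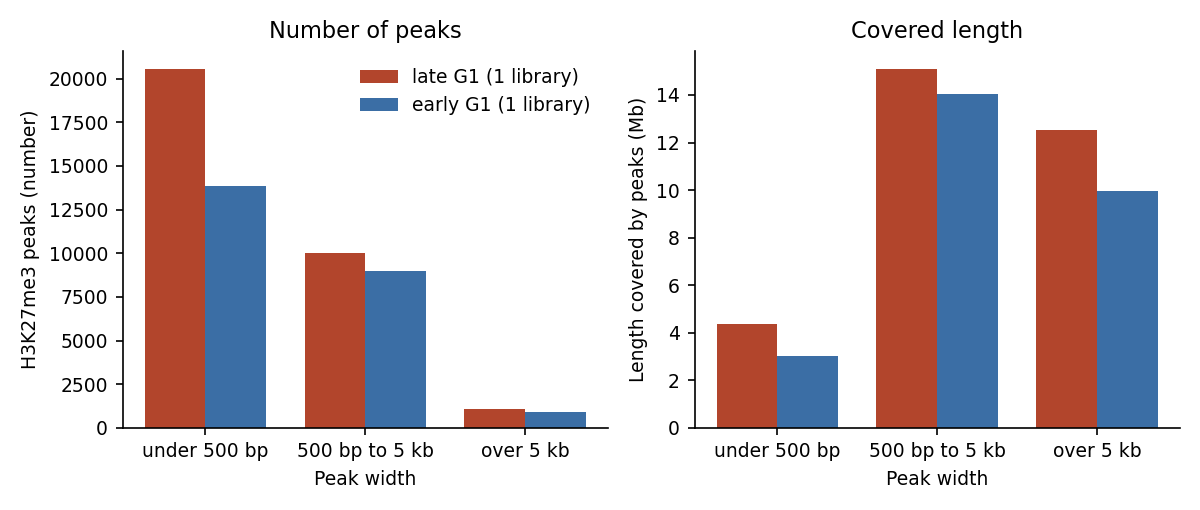
Number of H3K27me3 peaks (left) and length covered by them in Mb (right) in 3 classes of peak width, late G1 in red and early G1 in blue, 1 library each. The largest difference in number lies in the class under 500 bp (20569 in late G1 and 13879 in early G1) and the largest in length in the class over 5 kb (12.5 Mb in late G1 and 9.96 Mb in early G1).

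The excess of short peaks depended on how deep the lists were read. When the late G1 list was cut by score to the 23755 peaks of the early G1 list, the ratio of short peaks was 0.911 and that of covered length 1.15. Since the cut removed no peak over 5 kb, it says nothing of their ratio. With only the better 50% of each list by score, the ratio of short peaks was 1.99. Joining peaks of the same list that lay within 1 kb of each other gave a ratio of 1.26 for peaks over 5 kb and 1.22 for all peaks.

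Most of the covered bases were common to both lists. They shared 23.7 Mb, which was 74.1% of the late G1 length and 87.8% of the early G1 length. Of the 8.30 Mb covered in late G1 but not in early G1, 4.01 Mb lay in peaks without any partner, 2.92 Mb beyond the outer edges of the early G1 peaks of the same region and 1.37 Mb in gaps between early G1 peaks. Of the 3.30 Mb covered in early G1 but not in late G1, 1.22 Mb lay in peaks without partner, 1.48 Mb beyond the outer edges and 0.591 Mb in gaps. Each of the 3 parts was larger in late G1.

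Matching was close to complete for broad domains and poor for narrow peaks. Of the peaks over 5 kb, 99.5% in late G1 (98.9 to 99.9%) and 100% in early G1 (99.6 to 100%) overlapped a peak of the other list. For 500 bp to 5 kb the shares were 84.1% in late G1 (83.3 to 84.8%) and 96.3% in early G1 (95.9 to 96.7%). Under 500 bp they were 33.1% in late G1 (32.4 to 33.7%) and 61.0% in early G1 (60.2 to 61.8%). With equal numbers by score the overall shares were 60.8% of late G1 peaks and 72.1% of early G1 peaks, against 51.5% in late G1 and 75.8% in early G1 with the full lists. Overlapping peaks formed 12283 shared regions. In 7171 of them (58.4%) a single late G1 peak met a single early G1 peak, in 2147 (17.5%) 1 late G1 peak lay over 2 or more early G1 peaks, in 1935 (15.8%) 2 or more late G1 peaks lay under 1 early G1 peak, and 1030 (8.39%) had several peaks of each.

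Broad late G1 peaks more often joined what early G1 listed as separate peaks than the reverse. Of the matched peaks over 5 kb, 63.0% in late G1 (60.1 to 65.9%) overlapped 2 or more peaks of the other list, against 41.1% in early G1 (37.9 to 44.4%). In the middle class the shares were 28.8% in late G1 (27.9 to 29.8%) and 27.4% in early G1 (26.4 to 28.3%), and under 500 bp they were 4.34% in late G1 (3.86 to 4.85%) and 5.02% in early G1 (4.57 to 5.51%). Counted by the spanning peak, the asymmetry was seen in the broad class, and it kept its direction there under each alternative run for merging. The shares were 22.3% in late G1 and 8.30% in early G1 with peaks within 1 kb joined first. For peaks of at least 500 bp they were 45.5% in late G1 and 27.3% in early G1. With equal numbers by score they were 63.0% in late G1 and 37.9% in early G1. That cut could not reverse the direction, since it removed no peak over 5 kb and only late G1 partners of early G1 peaks. In all, 3409 late G1 peaks lay over 9133 early G1 overlaps, and 3160 early G1 peaks over 7193 late G1 overlaps. Counted by the peaks that were joined, as shares of all peaks whether matched or not, the asymmetry was seen in every class. Under such a peak of the other list lay 38.2% of the late G1 peaks over 5 kb (35.3 to 41.2%) and 57.5% of the early G1 ones (54.2 to 60.8%), 31.1% of the late G1 peaks of 500 bp to 5 kb (30.2 to 32.0%) and 40.7% of the early G1 ones (39.7 to 41.7%), and 16.8% of the late G1 peaks under 500 bp (16.3 to 17.4%) and 34.1% of the early G1 ones (33.3 to 34.9%). Much of the difference under 500 bp lay in how many peaks were matched at all. There 3463 of the 6805 matched late G1 peaks and 4731 of the 8463 matched early G1 peaks lay under such a peak.

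**Figure D2:**
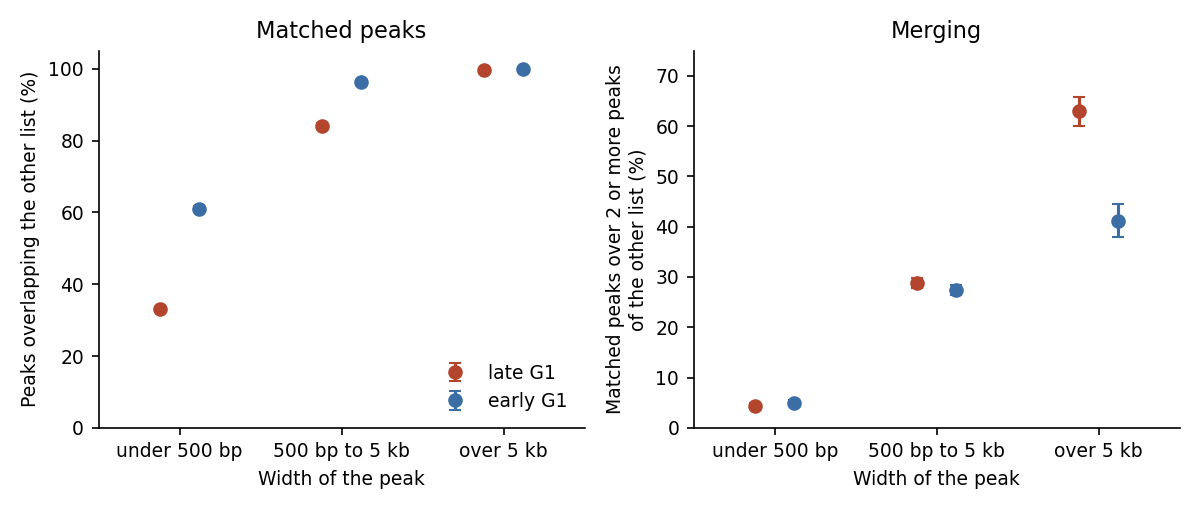
Share of peaks that overlap the other list by at least 1 bp (left, %) and share of the matched peaks that overlap 2 or more peaks of the other list (right, %) by peak width, late G1 in red and early G1 in blue, with exact 95% binomial intervals. Peaks over 5 kb stand apart on the right: 63.0% in late G1 and 41.1% in early G1.

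The gaps that were bridged were short. Under broad late G1 peaks the gaps between neighbouring early G1 peaks had a median of 200 bp, an upper quartile of 350 bp and a 90th percentile of 625 bp. Under broad early G1 peaks the gaps between late G1 peaks had a median of 125 bp and a 90th percentile of 300 bp. Both lists place peak ends on a 25 bp grid, so these medians are a few grid steps. Part of the broad peaks had no broad partner. Of the 1089 broad late G1 peaks, 765 (70.2%) had a broad early G1 partner, 313 (28.7%) had a widest partner of 500 bp to 5 kb, 6 had only shorter partners and 5 had none. Of the 897 broad early G1 peaks, 796 (88.7%) had a broad late G1 partner, 100 (11.1%) had a widest partner of 500 bp to 5 kb, and 1 had only a shorter partner.

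Some domains were listed as a single peak in late G1 and as several in each other fraction. At chr19:42007451-42028450 a late G1 peak of 21 kb lay over 23 early G1 peaks that covered 7.70 kb between them, and its height relative to the list median was 2.12 in late G1 and 1.30 in early G1. S phase listed 7 peaks there with 1.90 kb, and G2/M listed 9 with 23.6 kb including their parts beyond its edges. At chr12:34487251-34526225 a late G1 peak of 39.0 kb lay over 19 early G1 peaks with 11.4 kb, at a relative height of 3.54 in late G1 and 1.67 in early G1. In the late G1 peaks next in number of partners, little length was added. At chr12:132936076-132988775 a late G1 peak of 52.7 kb lay over 17 early G1 peaks with 46.1 kb, at chr12:54492426-54530750 a peak of 38.3 kb lay over 17 with 33.3 kb, and at chr12:132662876-132693700 a peak of 30.8 kb lay over 17 with 27.2 kb. The opposite case was smaller in scale. The early G1 peak over the most late G1 peaks, 24.4 kb at chr22:22690576-22715000, lay over 13 of them. They covered 24.1 kb including their parts beyond its edges, with gaps of 1675 bp between them. Next came a peak of 12.8 kb at chr6:122706651-122719400 over 9 late G1 peaks with 10.8 kb. A peak of 7.28 kb at chr13:95352851-95360125 lay over 8 with 6.70 kb including their parts beyond its edges, with gaps of 1150 bp between them.

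The longest domains had nearly the same extent in both fractions, with an exception on chromosome 22. The longest peak of both lists lay on chromosome 12, at chr12:54315601-54460725 in late G1 (145.1 kb) and chr12:54316226-54457150 in early G1 (140.9 kb). The second, at chr17:46616726-46728200, measured 111.5 kb in late G1 and 111.2 kb in early G1. The third shows how a short gap moves a domain between ranks: early G1 listed a single peak of 107.4 kb at chr7:27131926-27239300, and late G1 listed 2 peaks there with 107.1 kb in all, split by 125 bp, the longer being 69.2 kb. RefSeq places the HOXC, HOXB and HOXA gene clusters, classical Polycomb targets that encode regulators of body axis patterning, on chromosomes 12, 17 and 7, but no annotation in the files' coordinates was used, and whether these domains cover them was not determined. Next in late G1 was chr1:23695476-23757550, a peak of 62.1 kb over 10 early G1 peaks with 59.1 kb. It was followed by chr1:40123976-40185725, a peak of 61.8 kb over 4 early G1 peaks with 61.2 kb, including their parts beyond its edges. Next in early G1 was chr22:22715026-22777600 (62.6 kb, under which late G1 had 4 peaks with 74.3 kb in all, including their parts beyond its edges). It was followed by chr22:22549376-22605475 (56.1 kb, with 3 late G1 peaks of 55.95 kb, again including such parts). Relative heights at the longest 3 domains were higher in late G1, at 11.6 in late G1 and 7.69 in early G1 on chromosome 12, 18.2 in late G1 and 8.39 in early G1 on chromosome 17, and 12.2 in late G1 and 9.76 in early G1 on chromosome 7.

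Shared regions were slightly wider in late G1. The median shared region covered 1050 bp in late G1 and 925 bp in early G1, and the median log2 ratio of late over early G1 length was 0.07 (0.06 to 0.08), a factor of 1.05. Past 1.5-fold, 2751 of the 12283 regions (22.4%) were wider and 1753 (14.3%) narrower in late G1. With regions classed by the mean of both lengths, the median log2 ratio was 0.16 (0.12 to 0.19) under 500 bp, 0.07 (0.06 to 0.08) for 500 bp to 5 kb and 0.04 (0.04 to 0.05) over 5 kb. A class chosen on the length in 1 list pulls the ratio towards the other, and the short class shows by how much: its median log2 ratio was -0.21 when classed by late G1 length and 0.51 when classed by early G1 length. Over 5 kb the medians under these definitions were 0.06 by late G1 length and 0.03 by early G1 length, so the broad class was wider in late G1 under each definition, by a small factor. The spread was also much narrower there, with the central 90% of the log2 ratios between -0.10 and 0.49, against -1.81 and 2.12 under 500 bp. Of the 1097 regions over 5 kb, 40 (3.65%) were wider past 1.5-fold in late G1 and 0 were narrower. With 3 regions taken as the upper limit of a count of 0, this allows a share of up to 0.273%, an approximate limit and no exact interval. When classed by early G1 length, 4 of 1022 (0.391%) were narrower and 20 (1.96%) wider.

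**Figure D3:**
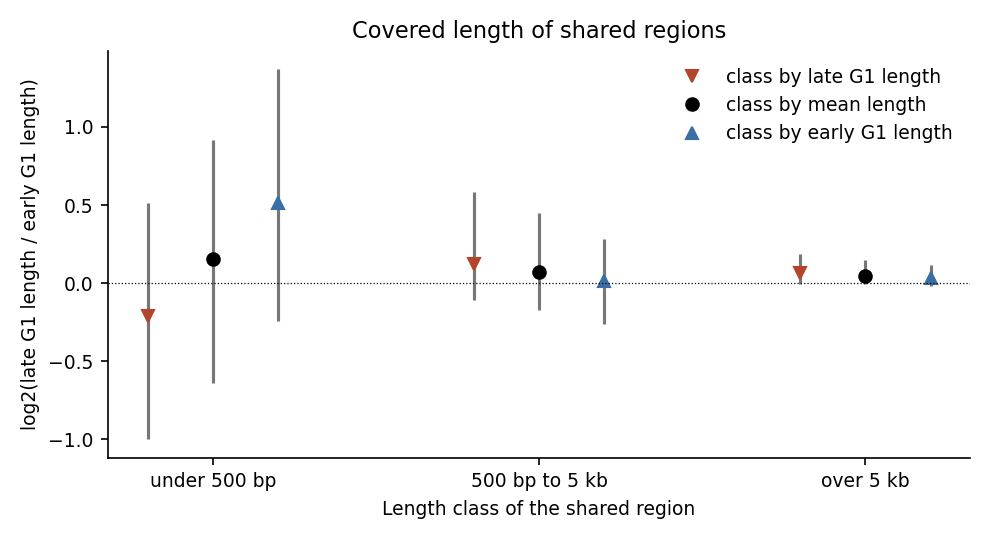
Median log2 ratio of late G1 over early G1 covered length of shared regions (points) with the interquartile range (lines), in 3 length classes defined by the length in late G1, by the mean of both and by the length in early G1. Under 500 bp the median is -0.21, 0.16 and 0.51 under these definitions, and over 5 kb it is 0.06, 0.04 and 0.03.

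Edges moved by a few grid steps. Among the 7171 pairs of 1 late and 1 early G1 peak, the lower-coordinate edge lay further out in late G1 in 49.1% and further in in 42.3%, and the upper-coordinate edge lay further out in 50.6% and further in in 41.2%. In the 187 pairs over 5 kb the outward shares were 54.5% at the lower and 61.0% at the upper edge, with median outward shifts of 25 bp and 50 bp. The 3 pairs of at least 500 bp in both lists with the largest width ratios measured 3.65 kb in late G1 and 0.825 kb in early G1 at chr4:1404576-1408225, 1.95 kb in late G1 and 0.5 kb in early G1 at chr22:37813876-37815900, and 2.425 kb in late G1 and 0.65 kb in early G1 at chr7:4719151-4721575. All 3 were also listed in G2/M, with 2.67 kb, 1.45 kb and 1.57 kb. The smallest ratios were 0.5 kb in late G1 and 1.8 kb in early G1 at chr12:52343276-52345075, 0.5 kb in late G1 and 1.35 kb in early G1 at chr9:100502901-100504625, and 0.525 kb in late G1 and 1.4 kb in early G1 at chr15:72533276-72534675. None of these last 3 was listed in S phase.

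Heights were compared as the height of a region's tallest peak over the list's median over the shared regions, which was 38.6 in late G1 and 42.2 in early G1 on the deposited scale (11538 regions on chromosomes 1 to 21, where heights are given). Relative to this median, domains over 5 kb were lower in late G1 for most regions and much higher for a minority. The median log2 ratio of relative heights, late over early G1, was -0.0038 (-0.02 to 0.01) under 500 bp, -0.13 (-0.14 to -0.11) for 500 bp to 5 kb and -0.23 (-0.26 to -0.19) over 5 kb, against -0.09 (-0.10 to -0.08) over all regions. Of the regions over 5 kb, 33.9% had a ratio above 0, against 49.4% of those under 500 bp. The sign of each class median depends on what heights are divided by: over 5 kb it was -0.36 with heights as deposited, -0.12 relative to the median of all peaks and 0.02 relative to the median of the broad regions themselves. The difference between the broad and the short class, -0.23, does not depend on that divisor. It was -0.16 with the mean height weighted by width and -0.32 in pairs of 1 peak each. The ratio also varied with height. In 5 groups of regions by mean relative height, lowest to highest, the median was -0.01, 0.05, -0.03, -0.21 and -0.26. The ratio of the 95th to the fifth percentile of height over all peaks was 6.87 in late G1 and 8.41 in early G1. Whether width matters apart from height was not tested.

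The 2 tails were unequal in size. The relative height was higher in late G1 past 2-fold in 570 regions (4.94%) and lower past 2-fold in 296 (2.57%). The balance depends on the scale: with heights as deposited 3.89% were higher and 5.25% lower, and relative to the median of the regions over 5 kb 8.62% were higher and 0.685% lower. Over 5 kb, 107 of 1025 regions (10.4%) were taller in late G1 and 11 (1.07%) lower, whereas under 500 bp these shares were 1.18% and 0.805%. The extreme ratios were -2.10 and 3.88 on the log2 scale, and 90% of all regions lay between -0.88 and 0.998.

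**Figure D4:**
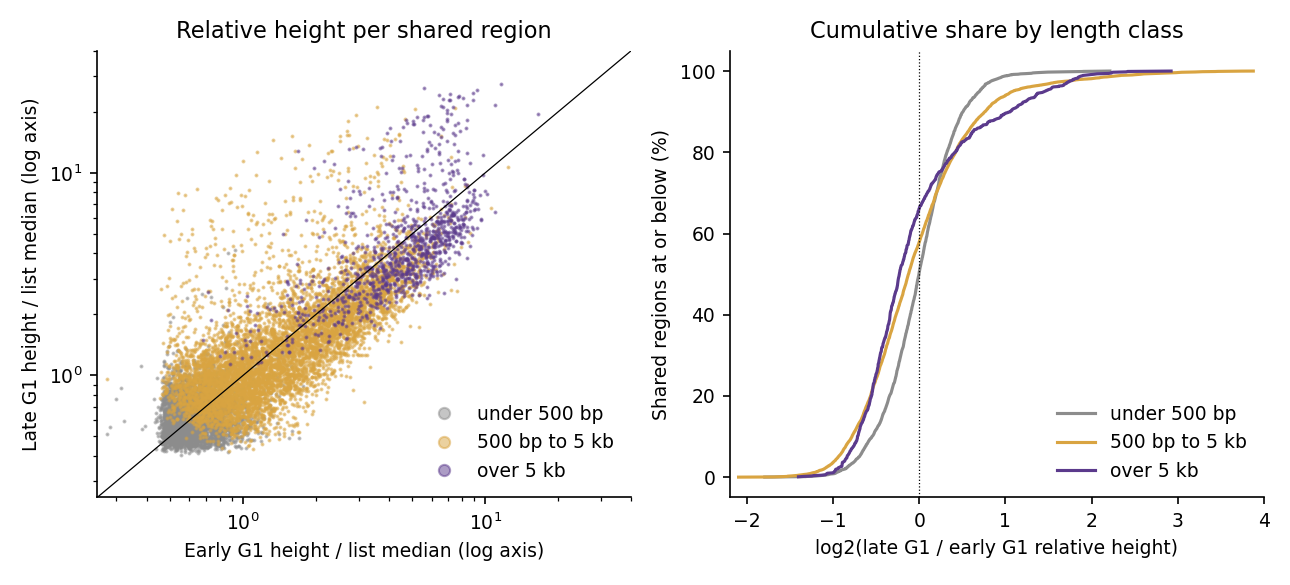
Left, height of each shared region relative to the list median in late G1 (vertical) and early G1 (horizontal), log axes, coloured by mean length, with the line of equal values. Right, cumulative share of regions (%) by log2 ratio of late over early G1 relative height; over 5 kb the curve crosses 0 furthest up (median -0.23) and has the largest share above 1 (10.4%).

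The S phase and G2/M lists were not used to choose these regions, but a low early G1 value was. Relative heights in S phase and G2/M are over the median of the shared regions listed there, 6845 in S phase and 8629 in G2/M, so their scale is not the same as that of the G1 lists. In the 145 regions with a log2 ratio above 2, both lay between the G1 fractions. Their median relative height was 0.993 in early G1, 6.26 in late G1, 3.396 in S phase and 3.48 in G2/M. Each of the 145 had a peak in both the S phase and the G2/M list. Of all 11538 regions with a height, 6845 were listed in S phase and 8629 in G2/M. The 145 regions covered a median of 1825 bp in late G1 and 1200 bp in early G1. H3K4me3 peaks overlapped 64.8% of the 145 in late G1 and 51.7% in early G1, against 28.5% in late G1 and 32.4% in early G1 over all regions with a height. The 5 with the largest ratios among regions of at least 500 bp in both lists were as follows. At chr3:169756026-169758475 the relative height was 11.42 in late G1 and 1.0003 in early G1, at chr3:38691326-38692875 it was 12.6 in late G1 and 1.14 in early G1, and at chr20:9816426-9819425 it was 14.6 in late G1 and 1.33 in early G1. At chr17:44850451-44852850 it was 7.52 in late G1 and 0.770 in early G1, and at chr6:151813826-151817200 it was 15.1 in late G1 and 1.59 in early G1. In S and G2/M these 5 regions had relative heights between 2.97 and 9.28. Their high late G1 and low early G1 values were fixed by the choice.

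In the 296 regions with a ratio below -1, the median relative height was 1.98 in early G1, 0.872 in late G1, 0.842 in S phase and 0.859 in G2/M, over the 73.3% of them listed in S phase and the 74.0% listed in G2/M. Over all 11538 regions with a height, 6845 were listed in S phase and 8629 in G2/M. The high early G1 and low late G1 values of the 296 regions were fixed by the choice, in which the S phase and G2/M lists had no part. How much of the distance between early G1 and the other fractions comes from that choice was not tested. H3K4me3 overlapped 39.9% of these regions in late G1 and 57.1% in early G1. The smallest ratios were found at chr10:104154276-104155300 (0.737 in late G1 and 3.16 in early G1), chr9:92219951-92221725 (0.850 in late G1 and 2.85 in early G1), chr11:130317601-130322625 (1.73 in late G1 and 5.30 in early G1), chr19:40971951-40972950 (1.46 in late G1 and 4.47 in early G1) and chr1:42846776-42848375 (1.10 in late G1 and 3.34 in early G1). Their covered lengths, late over early G1, had ratios between 0.648 and 1.06, and the region on chromosome 11 covered 5.03 kb in late G1 and 4.75 kb in early G1.

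The tallest regions were largely common to both fractions. Of the 1154 tallest regions of each list, 769 (66.6%) were shared. Height and width ratios moved together across regions, with a Spearman coefficient of 0.63 over the 11538 regions and 0.66 over the 6750 pairs of 1 peak each. This is a description only, since both ratios of a region come from the same 2 libraries.

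The height ratio also differed by whether H3K4me3, the mark of active and poised promoters, was listed at the region. Regions with H3K4me3 in both G1 fractions, 2865 of them, had a median log2 height ratio of -0.20 (-0.23 to -0.18), and the 7376 regions with it in neither had -0.01 (-0.02 to 0.0029). The groups also differed in deposited height. With H3K4me3 in both fractions its median was 59.5 in late G1 and 72.8 in early G1, and with it in neither 31.7 in late G1 and 32.9 in early G1. Whether H3K4me3 matters apart from height was not tested. The 420 regions with H3K4me3 in late G1 only had a median of 0.03 (-0.05 to 0.10), and 15.2% of them were taller past 2-fold. The 877 regions with H3K4me3 in early G1 only had -0.42 (-0.45 to -0.38), and 1.71% were taller past 2-fold. Over 5 kb the medians were 0.11 for H3K4me3 in late G1 only (74 regions), -0.40 for early G1 only (120 regions), -0.23 for both (317 regions) and -0.22 for neither (514 regions), so regions with H3K4me3 in both fractions and in neither lay together there. Shared regions in which 1 early G1 peak lay over several late G1 peaks carried H3K4me3 in 35.3% in late G1 and 43.6% in early G1, while those in which 1 late G1 peak lay over several early G1 peaks carried it in 27.01% in late G1 and 27.6% in early G1. Regions wider past 1.5-fold had it in 15.5% in late G1 and 14.0% in early G1, and narrower ones in 20.3% in late G1 and 27.4% in early G1. Over all shared regions the shares were 28.0% in late G1 and 31.9% in early G1, above those of both wider and narrower regions. The median span was 825 bp in wider, 650 bp in narrower and 1225 bp in all shared regions. In late G1 the share was 11.8% in shared regions under 500 bp and 34.8% in those of 500 bp to 5 kb. The part of length in these shares was not tested.

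The 4C viewpoint sites of GATA6 and SOX17, both endoderm transcription factor genes, each lay in a broad domain that had nearly the same extent and had a lower relative height in late G1. Within 30 kb of the GATA6 viewpoint site (chr18:19758344), late G1 listed 2 peaks with 19.5 kb in all and early G1 listed 4 with 19.2 kb. The main late G1 peak, 18.8 kb at chr18:19741651-19760450, lay over 2 early G1 peaks of 10.15 kb (chr18:19741651-19751800) and 8.725 kb (chr18:19751926-19760650), which a gap of 125 bp separated. Its relative height was 4.91 in late G1, against 6.51 and 5.81 for the 2 early G1 peaks, a log2 ratio of -0.41 for the taller. Around the SOX17 viewpoint site (chr8:55373264) merging ran the other way. There the main peak measured 21.3 kb in late G1 and 21.75 kb in early G1, where it lay over 3 late G1 peaks, and the relative height was 4.07 in late G1 and 6.49 in early G1, a log2 ratio of -0.68. Both ratios lay below the median of the broad class, -0.23. The quartiles of that class were -0.51 and 0.22, so the GATA6 ratio lay between them and the SOX17 ratio below the lower.

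Peaks listed in late G1 only were short and weak for the most part, and a part of them was also listed in G2/M. There were 15366 of them, with a median width of 200 bp and a median height at percentile 32.6 of the list, against 5748 in early G1 only with a median of 175 bp at percentile 23.8. A matched peak of the same list lay within 1 kb of 41.9% of the late-only and 51.7% of the early-only peaks. In G2/M 25.9% of the late-only peaks (25.2 to 26.6%) were listed and 8.37% of the early-only peaks (7.66 to 9.11%), and in S phase 8.45% of the late-only (8.01 to 8.90%) and 1.91% of the early-only peaks (1.58 to 2.30%). In the better 50% of each list by score, the G2/M shares were 55.4% of the late-only and 23.5% of the early-only peaks, and with no partner within 1 kb they were 25.9% of the late-only and 3.94% of the early-only peaks. Matched peaks were listed in G2/M in 67.4% in late G1 and 72.7% in early G1, and in S phase in 51.1% in late G1 and 51.7% in early G1. The S phase list was the shorter, with 19989 peaks against 26480 in G2/M, so shares in S phase and G2/M are not on the same footing. The shares differed by width. Of the 1597 late-only peaks of 500 bp to 5 kb, 73.3% (71.0 to 75.4%) were listed in G2/M and 27.3% (25.1 to 29.6%) in S, whereas of the 332 early-only peaks of that width 11.4% (8.23 to 15.4%) were listed in G2/M and 5.42% (3.24 to 8.43%) in S. Late-only peaks of this width were also higher in their own list, at a median height percentile of 68.6, against 58.5 for the early-only peaks, and the part of this in the shares was not tested.

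The longest peaks without a partner differed in scale. In late G1 they measured 9.0 kb at chr12:34541201-34550200, 7.58 kb at chr19:8867701-8875275 and 7.05 kb at chr19:8851201-8858250, and G2/M listed 4.97 kb, 11.6 kb and 6.23 kb of overlapping peaks there. In early G1 they measured 1.90 kb at chr13:39957126-39959025, 1.77 kb at chr11:22360851-22362625 and 1.62 kb at chr10:95750501-95752125, of which the first overlapped a short G2/M peak and the others no peak of S or G2/M. H3K4me3 overlapped 7.32% of the late-only peaks in late G1 and 4.21% in early G1, and of the early-only peaks 8.05% in late G1 and 11.05% in early G1. Under 500 bp the late G1 share was 6.43% of late-only peaks and 11.8% of shared regions. The early G1 share was 10.2% of early-only peaks and 13.5% of shared regions of that length. Median spans in this class were 175 bp for late-only peaks, 150 bp for early-only peaks and 400 bp for shared regions.

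The chromosome coded 24 was left out of the comparison by chromosome. Among those coded 1 to 23, chromosome 19 departed from the others in number, length, width and height. It held 2538 peaks in late G1 and 1114 in early G1, a ratio of 2.28, while the other 22 chromosome codes compared lay between 1.09 and 1.52. Its covered length had a ratio of 2.02, against 0.994 to 1.36 elsewhere. The median log2 width ratio of its shared regions was 0.41 (-0.06 to 0.23 elsewhere), the median log2 height ratio 0.23 (-0.31 to 0.06 elsewhere), and 12.3% of its regions were taller past 2-fold (2.30 to 9.41% elsewhere). A share of 25.1% of its late G1 peaks had an early G1 partner (42.8 to 62.9% elsewhere), and 1901 of its peaks were late-only against 124 early-only. The chromosome supplied 18.0% of the additional late G1 peaks and 20.4% of the additional length, and without it the ratios over the genome were 1.29 for number and 1.15 for length. Its share of the list was 4.69% in early G1, 8.01% in late G1, 4.66% in S phase and 7.32% in G2/M. H3K4me3 peaks of late G1 overlapped 3.26% of its late-only peaks, against 7.89% of those on other chromosomes. Within it the difference was uneven: 15 to 20 Mb held 391 peaks in late G1 and 110 in early G1, 40 to 45 Mb held 458 in late G1 and 171 in early G1, and 55 to 60 Mb held 304 in late G1 and 50 in early G1, whereas 10 to 15 Mb held 139 in late G1 and 103 in early G1. Chromosome 20, next in length ratio among the chromosomes compared, had 1046 peaks in late G1 and 703 in early G1.

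**Figure D5:**
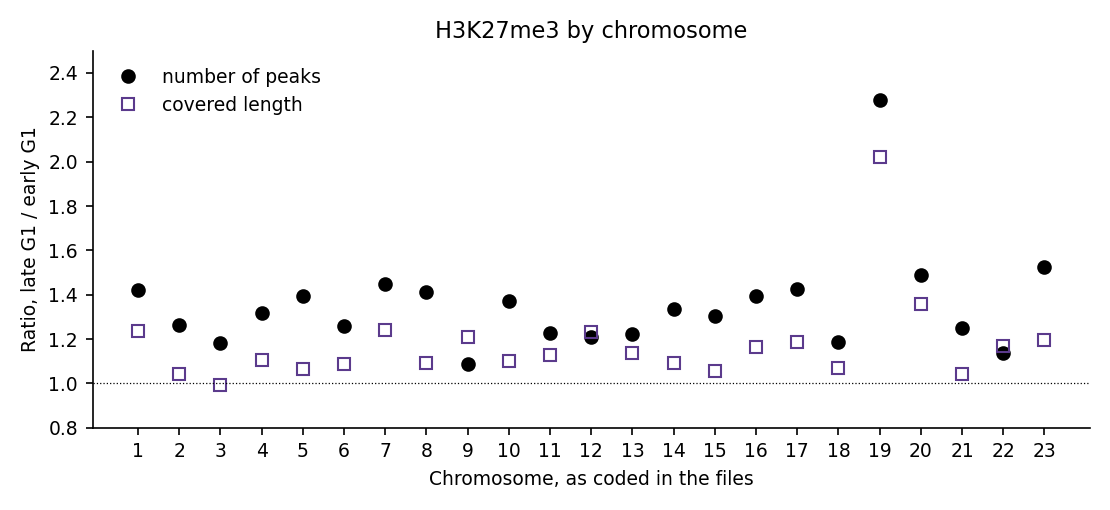
Ratio of late G1 over early G1 by chromosome as coded in the files, for the number of H3K27me3 peaks (filled circles) and the covered length (open squares). Chromosome 19 lies at 2.28 and 2.02, and all others shown at or below 1.52 and 1.36. The chromosome coded 24 is not shown.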

How the data were processed

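The deposited file of each ChIP library is a list of peaks with position, width, the authors' signal column, used here as peak height, and the authors' score column; the sources used here give neither the scaling of the signal nor the peak caller, its settings and any use of the inputs. The aligner Bowtie 0.12.7 and 2 builds, hg19 and mm9, appear per the submitters' processing notes, which give no role for either build; positions were read as hg19. Heights of 0, which include all on the chromosomes coded 22 to 24, were treated as missing. The deposited 4C counts, reads per restriction site, served only to place the viewpoint of each gene at the site with the most reads.

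Overlapping peaks of both lists (at least 1 bp) were joined into shared regions, and widths, gaps and heights were computed with Python 3.11.15, numpy 2.4.6, pandas 2.3.3 and scipy 1.17.1, after the functions were tested on simulated peaks; figures used matplotlib 3.10.9. Groups came from the labels, with 1 library each, so no test was made. Members and lists were chosen with earlier results of these data known. Regions named in the text are the 5 late and 3 early G1 peaks over the most peaks of the other list, the 5 longest of each list, the 3 largest and 3 smallest width ratios of single pairs, the 5 largest and 5 smallest height ratios (both at least 500 bp), the 3 longest without partner in each list and the loci of the 4C viewpoints, without the chromosome coded 24. Alternatives changed the list depth, the overlap, the classes, the joining of near peaks and the scale of heights. Gene lists and markers were not analysed here, since no annotation of hg19 was used, and the inputs were not used here.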

Additional observations from a re-analysis of the deposited data

How the results depend on the processing

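Of 189 values recomputed under the alternatives, 84 lay within the 95% interval of the reported value (or within 5% where it has none), 95 lay outside it and 10 changed direction. The 84 include values that the setting could not change, so their number is no measure of robustness. Such are width ratios over all regions under other class definitions, and total number and length under other width bounds. Another is the height difference between classes under another divisor. Leaving out chromosomes 9, 19 or 20 was chosen after the data were seen. The cause of these shifts was not tested. The ratio of peak numbers was 1 with equal numbers, by construction, 1.22 with peaks within 1 kb joined, 1.29 without chromosome 19 and 1.38 without chromosome 9; the ratio under 500 bp turned to 0.911 with equal numbers. The matched share of late G1 and early G1 peaks was 42.1% and 67.7% with at least 50% of the peak covered, 61.8% and 85.6% in the better 50% of each list by score, 60.8% and 72.1% with equal numbers, 71.7% and 85.9% for peaks of at least 500 bp, 53.8% and 75.2% without chromosome 19, and 50.6% in late G1 without chromosome 9. The share of matched late G1 and early G1 peaks over 2 or more peaks was 23.9% and 20.6% with at least 50% of the smaller peak covered, 23.4% and 14.6% with equal numbers, 8.23% and 3.54% with peaks within 1 kb joined, 14.4% and 11.9% for peaks of at least 500 bp, 20.2% in late G1 without chromosome 9 and 18.2% in early G1 without chromosome 19. The median log2 width ratio was 0.085 with equal numbers, 0.0618 without chromosome 19 and 0.0616 without chromosome 9, and under 500 bp it turned to -0.21 with classes by late G1 length.

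The difference in log2 height ratio between the classes over 5 kb and under 500 bp was -0.16 with width-weighted heights, -0.32 in single pairs and -0.24 without chromosome 9. Divided by the median of all peaks, the median log2 height ratio turned to 0.028 over all regions and 0.11 under 500 bp. Divided by the median of regions over 5 kb, it turned to 0.16 over all regions, 0.25 under 500 bp, 0.13 for 500 bp to 5 kb and 0.021 over 5 kb. Under 500 bp it turned to 0.012 without chromosome 19 and 0.042 without chromosome 9. The share listed in G2/M was 55.4% of late-only and 23.5% of early-only peaks in the better 50% of each list by score, and 3.94% of early-only peaks with no partner within 1 kb. With H3K4me3 peaks within 1 kb counted, 38.0% of shared regions had the mark in late G1 and 42.8% in early G1. The number of reads per library is unknown here, which limits what the short peaks can show. No paired analysis was possible because each group has 1 library.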

Other observations

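On chromosome 9, positions 40 to 50 Mb and 65 to 75 Mb held 2696 peaks in late G1 and 2608 in early G1, which was 70.9% of the chromosome's peaks in late G1 and 74.5% in early G1. They covered 2025 kb in late G1 and 1590 kb in early G1 in peaks with a median width of 300 bp in each, and 50 in late G1 and 35 in early G1 were over 5 kb. H3K4me3 peaks of the same fraction overlapped 2.41% of them in late G1 and 1.802% in early G1.

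Within each list the authors' height and score ranked peaks in nearly the same order on most chromosomes. On chromosome 20 the Spearman coefficient of height and score was -0.94 over its peaks in late G1 and -0.90 in early G1, against -0.98 in late G1 and -0.99 in early G1 on chromosome 8. Without chromosome 20 the median log2 height ratio over 5 kb was -0.23.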
